A study of Mus musculus with 26 samples.

Results

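The 100 genes described here are those lost most clearly from both MaTAR25 knockout clones of the 4T1 mouse mammary tumor cell line. They were chosen by their measured values, as CPM, the counts of a gene scaled to a common total of gene counts per library. Of 45318 genes counted, 11800 had a CPM of 1 or more in both control libraries. These 11800 genes were ranked by the lower control CPM plus 0.1 divided by the highest CPM over the 7 knockout libraries plus 0.1, and the top 100 were taken (0.847% of the 11800). Their ratios ran from 75.5 for Dapk1 to 3.04 for Abtb2, with a median of 3.96. The last members, Mpped2 (3.07), Ildr1 (3.07) and Abtb2 (3.04), lay just inside the limit, and Gm13836 (3.03) and Gm37795 (3.01) lay just outside it. In all, 2894 of the 11800 genes (24.5%) had every knockout library below both controls.

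4T1 cells are a BALB/c mammary tumor line that serves as a model of triple-negative breast cancer, and MaTAR25 (annotated as 1200007C13Rik) is a nuclear long noncoding RNA. RNA was sequenced in 2 libraries of control cells of wild type genotype, which had received a guide RNA against Renilla luciferase, and in 3 libraries of MaTAR25-/- KO1 and 4 of MaTAR25-/- KO2. Each of KO1 and KO2 grew from a single sorted cell after Cas9 and paired guide RNAs had cut out the start of the gene, so that each is 1 clone, and within either clone the deletion and other differences of that clone cannot be told apart. The control cells carried the same treatment with Cas9 and a guide, and their clones also came from single cells. The labels do not say that libraries of a group came from separate cultures, so p-values measure the spread between these libraries, which may be technical.

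Libraries held 25367211 to 61110585 gene counts. MaTAR25 itself stood at 0.811 and 0.962 CPM in the controls, at 0 to 0.228 CPM in KO1 and at 0.0394 to 0.300 CPM in KO2, so it lay under the limit of 1 CPM and is no member. Tns1, the tensin gene studied as a MaTAR25 target, stood at 7.18 and 2.28 CPM in the controls and at 1.26, 0.881 and 0.130 in KO1. In KO2 it stood at 0.327, 0.355, 2.79 and 0.123 CPM. It ranked 4789 with a ratio of 0.821, because KO2 replicate 3, alone of the knockout libraries, exceeded control replicate 2. The rank rests on the lower control and the highest knockout library and is no test of Tns1. The paper counted Tns1 among genes changed in knockout cells by RNA-seq (DESeq2, adjusted p under 0.1) and also found by ChIRP-seq. It reported lower Tns1 RNA and protein in knockout cells by qRT-PCR and immunoblot. In the paper Tns1 RNA also followed MaTAR25 after knockdown by antisense oligos, and rose in knockout cells with ectopic MaTAR25. All 7 epithelial markers checked were at 1 CPM or more in every library, with summed levels of 4740 to 4856 CPM in controls, 3817 to 5184 in KO1 and 1796 to 3764 in KO2. The part of this lower epithelial level of KO2 in the results was not tested. The 5 leukocyte markers summed to 3.37 to 4.47 CPM in controls, 11.8 to 28 in KO1 and 1.77 to 20.6 in KO2, so that all KO1 libraries lay above both controls, and 1 of the 5 was at 1 CPM or more in every library. Cd3e had 0 counts in the controls and in KO2, and Itgam in the controls. The part of these markers in the results was not tested.

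Several members belong to the integrated stress response, in which phosphorylation of the translation factor eIF2 raises translation of ATF4, a transcription factor that then switches on Ddit3, Trib3, Atf3 and genes of amino acid supply. This response is active in many tumor cells under limited nutrients. Other members encode surface receptors, matrix proteins and enzymes of lipid metabolism.

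Of the 100 genes, 83 had a promoter window in the RefSeq table for GRCm38.p6 (250 bases before to 50 after the start site). The 150 bases before the start are shown for 6 of them: Dapk1 and Chst7 as the genes with the highest ratios, Atf3 as a stress regulator, and Slc9a9, Mt2 and Ciart for the sequence motifs they hold. Capitals mark GGGCGG (the GC box) in Dapk1 and Chst7, TGATGNAA in Atf3, TGANTCA and TGATGNAA in Slc9a9, TGANTCA (the AP-1 site) in Mt2, and CACGTG (the E-box) in Ciart. In Atf3 the capitals are the reverse complement.
Dapk1, chr13:60602061-60602210, plus strand: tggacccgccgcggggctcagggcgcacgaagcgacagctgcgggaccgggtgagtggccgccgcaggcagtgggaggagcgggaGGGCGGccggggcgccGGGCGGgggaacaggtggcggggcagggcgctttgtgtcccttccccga
Chst7, chrX:20059420-20059569, plus strand: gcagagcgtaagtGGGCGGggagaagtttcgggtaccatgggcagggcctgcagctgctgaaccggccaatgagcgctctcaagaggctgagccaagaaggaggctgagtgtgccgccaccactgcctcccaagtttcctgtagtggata
Atf3, chr1:191183334-191183483, minus strand: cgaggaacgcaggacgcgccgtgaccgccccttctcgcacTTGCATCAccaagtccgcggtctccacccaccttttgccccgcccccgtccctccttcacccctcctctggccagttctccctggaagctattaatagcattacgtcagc
Slc9a9, chr9:94669742-94669891, plus strand: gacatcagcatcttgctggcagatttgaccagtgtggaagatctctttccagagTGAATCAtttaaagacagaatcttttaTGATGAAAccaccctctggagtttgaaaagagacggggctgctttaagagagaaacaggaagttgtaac
Mt2, chr8:94172468-94172617, plus strand: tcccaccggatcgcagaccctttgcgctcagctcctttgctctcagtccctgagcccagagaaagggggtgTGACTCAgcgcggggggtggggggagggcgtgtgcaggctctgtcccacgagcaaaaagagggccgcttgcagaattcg
Ciart, chr3:95882229-95882378, minus strand: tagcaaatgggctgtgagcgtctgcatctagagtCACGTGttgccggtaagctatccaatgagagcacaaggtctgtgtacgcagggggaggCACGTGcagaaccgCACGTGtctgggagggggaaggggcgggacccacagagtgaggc

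Motifs were counted on either strand of 1 window per gene, and each share is set beside that of the 27025 windows of all genes and that of the windows of the 11800 genes from which the members were drawn. TGANTCA was found in 11 of the 83 windows (13.3%), against 7.93% of all windows and 4.76% of those of the 11800 genes. GGGCGG was found in 42 (50.6%, against 35.9% and 67.2%), and GGTGG, an element bound by PURB, in 58 (69.9%, against 59.8% and 66.9%). TATAAA was found in 8 (9.64%, against 14.2% and 6.26%), so that the members lay below all genes and above the 11800. CACGTG was found in 4 (4.82%, against 7.24% and 10.6%) and TGACGTCA in 1 (1.20%, against 1.88% and 3.59%). TGATGNAA, which resembles the ATF4 and CEBP composite site and was added after the data had been seen, was found in 4 windows (4.82%, against 4.06% and 2.12%), those of Atf3, Trib3, Zfr2 and Slc9a9. These are counts of letters, some of which overlap, and were not tested. Ciart, a repressor in the circadian clock, held CACGTG at 3 places.

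**Figure D1:**
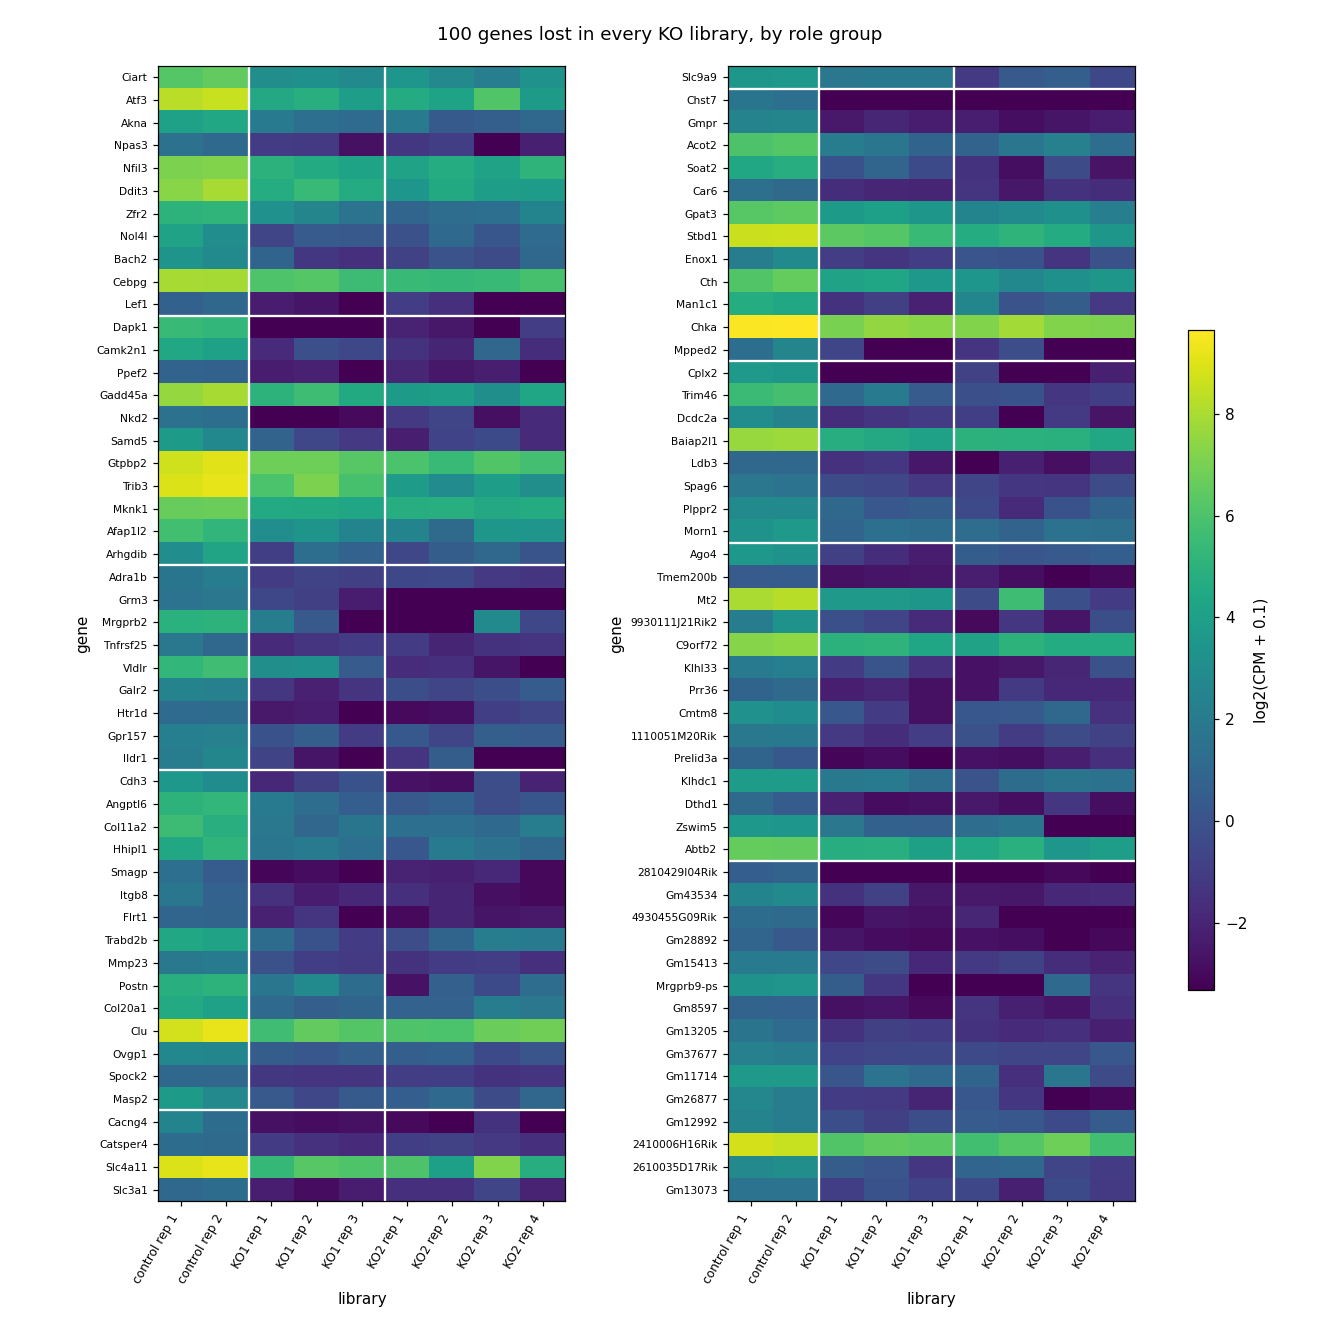
Expression of the 100 genes in the 9 libraries, as log2(CPM + 0.1) (colour), with genes in rows grouped by role (white lines, in the order regulators, kinases and signalling, receptors, matrix and adhesion, then channels and transporters with Slc9a9 at the top right, enzymes, cytoskeleton, other coding, noncoding) and libraries in columns. Both control columns are brighter than all 7 knockout columns in each row, as the choice of genes requires, and single bright knockout cells such as Mt2 in KO2 replicate 2 show where libraries of a clone differ.

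The members were low in the controls too, with mean control levels from 1.24 to 784 CPM and a median of 9.32, against a median of 39.8 over the 11800 genes. There were 52 members under 10 CPM, where 21.4% of the 11800 genes were, and 16 at 100 CPM or more. Per kilobase of exon, the control level ran from 0.174 (2810429I04Rik) to 896 (2410006H16Rik) CPM per kb. The median over the 7 knockout libraries was 0.570 CPM for the middle member. Protein-coding genes made up 85 of the members, and the other 15 were antisense, long intergenic or other noncoding transcripts and pseudogenes. Genes not annotated as protein coding, including any without an annotated biotype, form 7.19% of the 11800 genes. Mean levels were under 10% of the control mean for 52 members in KO1, for 55 in KO2 and for 37 in both.

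In the edgeR fit across all genes, 97 of the 100 passed an adjusted p of 0.1 as lower in the knockouts, against 10.7% of the 15023 genes tested. The choice of members used this contrast, so nothing is read from that count. The 3 that did not pass were Mrgprb2, Vldlr and Zswim5, whose knockout libraries differed among themselves. Against the same controls, 97 members were lower in KO1 (15.7% of all genes tested) and 97 in KO2 (15.0%). The median log2 difference from control was -3.30 in KO1 and -3.38 in KO2, against 0.02 and 0.03 over all genes tested. All 100 members passed the filter on low counts in the fits of all 9 libraries, controls included.

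Dapk1, a calmodulin-dependent kinase known as a mediator of cell death, was the most clearly lost gene. It lies on chromosome 13 (GRCm38, chr13:60601947-60763191, plus strand). Its level was 43.7 and 38.3 CPM in the controls, 0 in all 3 KO1 libraries, and 0.136, 0.0788, 0 and 0.409 CPM in KO2. Controls and knockouts did not overlap, and 27 counts remained in KO2 against 3080 in the controls. Against a floor of 3 counts over the KO1 libraries, the control mean was at least 1781-fold higher than KO1. The control mean was 263-fold the KO2 mean.

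Chst7, a sulfotransferase that acts on chondroitin and other glycans, was the member with 0 counts in all 7 knockout libraries. Its controls held 3.17 and 2.60 CPM, and with 3 counts allowed over the knockout libraries they were at least 274-fold higher. Gmpr, which converts GMP to IMP, fell from 5.54 and 5.87 CPM to 0.0818, 0.163 and 0.104 in KO1 and 0.109, 0.0394, 0.0687 and 0.102 in KO2. The clones overlapped in part at this low level. Cplx2, a complexin that binds the SNARE complex in vesicle release, stood at 12.2 and 11.5 CPM in controls, at 0 in KO1, and at 0.464, 0, 0 and 0.123 in KO2. The noncoding 2810429I04Rik kept 1 count in 1 knockout library (KO2 replicate 3, 0.0229 CPM) against 1.39 and 1.67 CPM in the controls.

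Among the other 7 of the 12 highest ratios, Acot2, a mitochondrial acyl-CoA thioesterase, fell from 65.7 and 76.0 CPM to 1.69 to 4.34 in KO1 and 1.66 to 4.92 in KO2. It has a near-identical neighbour, Acot1, with which reads could be split. Soat2, which makes cholesterol esters, stood at 20.8 and 26.7 CPM in controls, 0.648 to 1.79 in KO1 and 0.0394 to 0.687 in KO2. Trim46, which organises axonal microtubules, went from 45.2 and 56.6 CPM to 2.09, 4.05 and 1.22 in KO1 and 0.791, 0.867, 0.321 and 0.429 in KO2. Dcdc2a, a doublecortin family protein of cilia, stood at 8.09 and 5.39 CPM in controls and at no more than 0.436 in any knockout. Camk2n1, an inhibitor of CaM kinase II, stood at 22.1 and 17.2 CPM in controls and at 0.196 to 0.783 in KO1, while KO2 replicate 3 kept 1.83 CPM against 0.158 to 0.273 in the other KO2 libraries. Gm43534 (annotated as TEC) and 4930455G09Rik (antisense) are not annotated as protein coding, and their knockout levels stayed under 0.5 and under 0.2 CPM.

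The regulators formed a group of 11, with a median log2 difference from control of -3.07 in KO1 and -3.24 in KO2. Atf3, a stress-induced transcription factor, stood at 318 and 381 CPM in controls, 22.4, 28 and 14.9 in KO1, and 25, 18.4, 69.9 and 13.5 in KO2. KO2 replicate 3 was the highest knockout library and still lay 4.54-fold under the lower control on the ranking scale. Ddit3 (CHOP), which promotes death under prolonged stress, stood at 161 and 245 CPM in controls, 25.7, 42.8 and 25.3 in KO1, and 11.1, 23.1, 15.3 and 13.7 in KO2. Cebpg, a partner of ATF4, fell from 246 and 242 CPM to 46.6 to 75.4 in KO1 and 39.1 to 58.6 in KO2. Nfil3, a basic leucine zipper repressor, fell from 136 and 144 CPM to 18.1 to 31.9 and 17.4 to 34.5. Ciart stood at 75.0 and 90.9 CPM in controls, 7.31 to 9.10 in KO1 and 4.58 to 11.1 in KO2. The clones overlapped for Atf3, Cebpg, Nfil3 and Ciart and did not for Ddit3. The other regulators were Akna, Npas3, Zfr2, Nol4l, Bach2 and Lef1. Ddit3, Cebpg, Nfil3, Ciart and other members outside the naming rule were described after their values had been seen.

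The kinases and signalling proteins (11 members) included Trib3, a pseudokinase induced by ATF4 and CHOP. It stood at 501 and 582 CPM in controls, 62.5, 137 and 58.7 in KO1, and 13.6, 7.41, 14.6 and 8.36 in KO2, so that all KO1 libraries lay above all KO2 libraries. Gadd45a, a growth arrest gene, stood at 195 and 250 CPM in controls, 32.8, 48.8 and 23.5 in KO1, and 13.2, 15.5, 8.73 and 20.4 in KO2. Gtpbp2, a GTP-binding protein linked to ribosome rescue, stood at 419 and 532 CPM in controls, 110, 110 and 78.3 in KO1, and 62.9, 42.4, 69.2 and 54.8 in KO2. Mknk1, Afap1l2, Arhgdib, Ppef2, Samd5 and Nkd2, an inhibitor of Wnt signalling, were the others besides Dapk1 and Camk2n1.

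The stress and growth arrest list held 19 tested genes, of which Atf3, Ddit3, Trib3 and Gadd45a were members. Of the 15 that were not, 6 passed the edgeR test as lower in the knockouts, where 10.7% of all genes tested were called lower. None passed as higher, with a count of 0 by edgeR, by DESeq2 and at an unadjusted p under 0.05. The list was written with earlier results of these data known, so these counts are no independent evidence of a fall. Atf4 itself fell by 1.20 on the log2 scale, from 599 and 612 CPM to 244 to 439 in KO1 and 147 to 191 in KO2 (edgeR adjusted p = 0.0491). Sesn2, which restrains mTORC1, stood at 68.6 and 79.0 CPM in controls, 13.6 to 32.1 in KO1 and 4.78 to 8.27 in KO2 (adjusted p = 0.0167). Chac1, which degrades glutathione, was at 146 and 169 CPM in controls, 73.7 to 190 in KO1 and 12.9 to 20.3 in KO2, and did not pass for the knockouts together (adjusted p = 0.354).

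**Figure D2:**
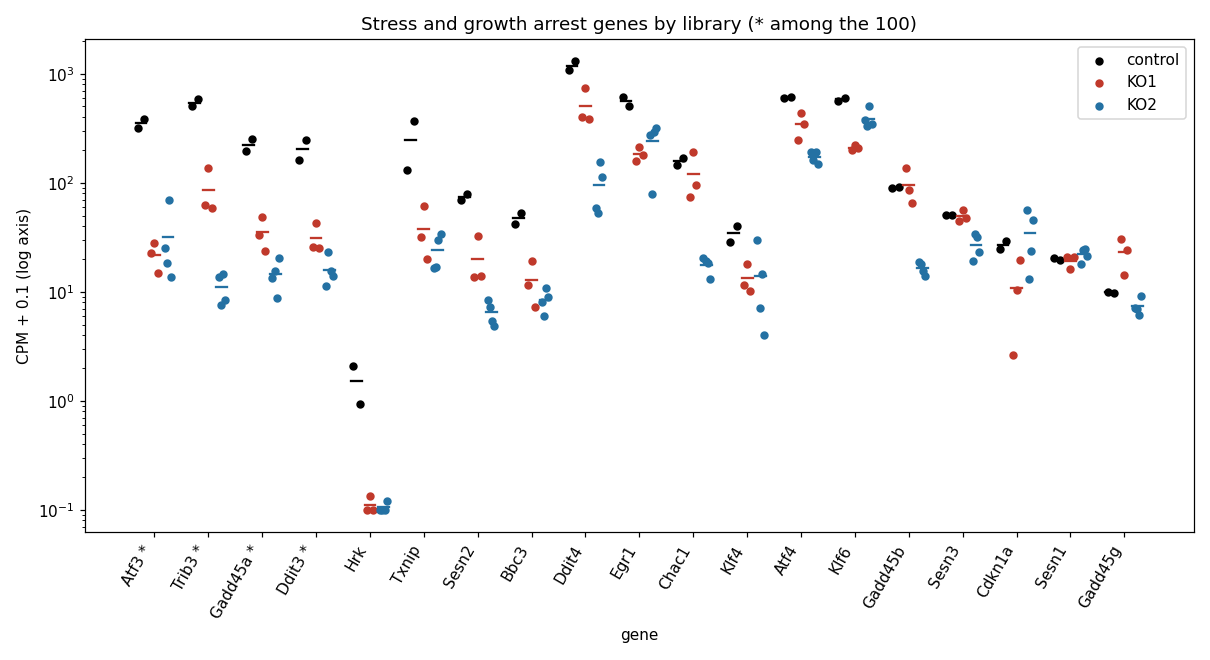
CPM + 0.1 (log axis) of the 19 tested stress and growth arrest genes in control (black), KO1 (red) and KO2 (blue) libraries, with points for libraries and bars for group means. The 4 starred genes among the 100 lie under both controls in every knockout library, and Trib3, Sesn2, Chac1 and Ddit4 sit lower in KO2 than in KO1.

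The 9 surface receptors were expressed at low levels, with mean control levels of 2.27 to 44.7 CPM. Galr2, a galanin receptor, stood at 5.38 and 4.97 CPM in controls, 0.311, 0.130 and 0.285 in KO1, and 0.764, 0.552, 0.756 and 1.29 in KO2. Grm3, a metabotropic glutamate receptor, stood at 2.99 and 3.46 CPM, at 0.605, 0.457 and 0.104 in KO1, and at 0 in all 4 KO2 libraries. Vldlr, the very low density lipoprotein receptor, stood at 38.9 and 50.5 CPM in controls, 8.41, 9.04 and 1.22 in KO1, and 0.218, 0.237, 0.0687 and 0 in KO2. Adra1b, the alpha-1B adrenergic receptor, kept 0.393 to 0.522 CPM in KO1 and 0.307 to 0.631 in KO2 of 3.20 and 4.36 in controls. Gpr157 kept 0.389 to 1.44 and 0.552 to 1.44 CPM of 4.77 and 5.0. Of the list of G protein-coupled receptors, which was written by symbol pattern and does not hold Grm3 or Mrgprb2, 4 of 43 genes at 1 CPM or more in controls were members (9.30%, against 0.847% of the 11800 genes), the fourth being Htr1d. Of the 59 other tested genes of this list, 4 were called lower and 5 higher, against 10.7% and 11.9% of all genes tested. The share of members was not adjusted for expression level. Mrgprb2, a mast cell receptor in other tissues, shares sequence with the member Mrgprb9-ps next to it, so that reads of these 2 genes are uncertain. Both were at 0 in KO1 replicate 3 and in KO2 replicates 1 and 2, and highest in KO2 replicate 3.

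The matrix, secreted and adhesion group was the largest of the coding groups (15 members). Col11a2, a fibrillar collagen chain, stood at 47.6 and 28 CPM in controls, 1.83 to 3.53 in KO1 and 2.04 to 4.25 in KO2. Col20a1 fell from 24.2 and 17.3 CPM to 1.44 to 2.03 and 1.61 to 4.40. Postn (periostin), a matricellular protein, stood at 28.3 and 32.8 CPM, at 3.32, 7.18 and 2.28 in KO1, and at 0.0546, 1.46, 0.641 and 2.39 in KO2. Of the 37 other tested genes of the collagen and matrix list, 5 were called lower and 5 higher, where 10.7% of all genes tested were called lower and 11.9% higher. Cdh3 (P-cadherin) stood at 11.8 and 7.73 CPM in controls and at most 0.856 in a knockout. Itgb8, an integrin chain that activates TGF-beta, went from 3.29 and 1.60 CPM to at most 0.262. Of the adhesion list, 8 of 71 other genes were called lower and 4 higher, against the same 10.7% and 11.9%.

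Slc4a11, a solute carrier of the plasma membrane, stood at 499 and 570 CPM in controls, 39.1, 77.7 and 67.9 in KO1, and 65.6, 16, 144 and 27.4 in KO2. The KO2 libraries thus spread more than the KO1 libraries and enclosed them. Slc9a9, a sodium/proton exchanger of endosomes, stood at 11.6 and 11.9 CPM, at 3.39, 3.69 and 3.66 in KO1, and at 0.355, 1.14, 1.40 and 0.593 in KO2. Slc3a1, a subunit of a cystine transporter, kept 0.0326 to 0.115 CPM in KO1 and 0.143 to 0.550 in KO2 of 1.99 and 2.34. Cacng4, a channel subunit, stood at 5.77 and 2.31 CPM in controls and at most 0.275 in a knockout, and Catsper4 at 2.32 and 2.15 CPM against 0.207 to 0.473. Of the 220 other tested solute carriers, 28 were called lower and 29 higher, against the same 10.7% and 11.9%.

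The 12 enzymes had a median log2 difference of -4.04 in KO1 and -3.71 in KO2. Chka, choline kinase alpha, which starts phosphatidylcholine synthesis, was the most abundant member by CPM. It stood at 768 and 801 CPM in controls, 133, 187 and 162 in KO1, and 148, 234, 144 and 135 in KO2, and the clones overlapped. Stbd1, which binds glycogen, stood at 384 and 399 CPM, at 83.0, 74.7 and 44.8 in KO1, and at 25.9, 34.6, 25.1 and 11.4 in KO2. Gpat3, which acylates glycerol 3-phosphate, stood at 77.0 and 86 CPM, at 13.2, 15.9 and 11.4 in KO1, and at 5.67, 7.29, 8.91 and 4.56 in KO2. Man1c1, a Golgi mannosidase, stood at 26.2 and 21.2 CPM, at 0.278, 0.457 and 0.130 in KO1, and at 6.03, 0.907, 1.33 and 0.347 in KO2. Cth, which makes cysteine from cystathionine, stood at 69.4 and 95 CPM, at 12 to 19.5 in KO1 and at 6.54 to 11.7 in KO2. Of the lipid enzymes, Acot2, Soat2 and Gpat3 were members, and 2 of the 39 others tested were called lower and 5 higher, where 10.7% and 11.9% of all genes tested were. Car6, Enox1 and Mpped2 completed the group.

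Mt2, a metallothionein that binds zinc and copper, stood at 253 and 306 CPM in controls and at 11.4 to 12.6 in KO1. In KO2 it was at 0.682, 49.7, 0.802 and 0.388 CPM, so that replicate 2 stood apart from the other 3. Zswim5, Mpped2 and Ildr1 were present in KO2 replicates 1 and 2 and at 0 in replicates 3 and 4. Zswim5 stood at 2.40 and 3.04 CPM there, Mpped2 at 0.300 and 0.749, and Ildr1 at 0.300 and 1.30. Of the other coding genes, Ago4, an Argonaute protein of small RNA silencing, and C9orf72 were also members, and 9930111J21Rik2, an interferon-inducible GTPase with a close relative beside it, is uncertain. Plppr2, a neuronal membrane protein, stood at 7.07 and 7.06 CPM in controls, 1.04 to 1.90 in KO1 and 0.197 to 1.74 in KO2. Baiap2l1, which shapes membrane protrusions, fell from 200 and 211 CPM to 17 to 26.9 and 21.5 to 31.8.

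Among the noncoding members, 2410006H16Rik was the most abundant, with 455 and 372 CPM in controls, 69.2 to 88.4 in KO1 and 52.1 to 111 in KO2. Gm11714 stood at 12.8 and 12.7 CPM, at 0.998 to 3.0 in KO1 and 0.237 to 3.32 in KO2, and 2610035D17Rik at 6.72 and 8.40 CPM, at 0.311 to 1.29 and 0.388 to 1.93. Of the members, 43 overlap a gene on the opposite strand, and the counting was not stated to use strand, so that reads of such pairs cannot be told apart.

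The question of how KO1 and KO2 compare was tested directly, in a fit with 3 groups. The choice of members bounds the highest knockout value of either clone but does not order the clones. Between the clones, 21 of the 100 members differed (edgeR, adjusted p under 0.1), against 19.6% of all genes tested. Of these, 12 were higher in KO1 and 9 in KO2, against 9.43% and 10.2% of all genes, so these shares were near the background. The libraries of the clones did not overlap for 18 members, against 24.2% of all genes. The mean was higher in KO1 for 51 members and in KO2 for 48. The median absolute log2 difference between clones was 0.67 over the members and 0.36 over all genes tested. The members were chosen to be low in the knockouts, and 26 had 0 counts in at least 1 knockout library. A few counts can make a large log2 difference at such levels, which limits the comparison of these medians.

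**Figure D3:**
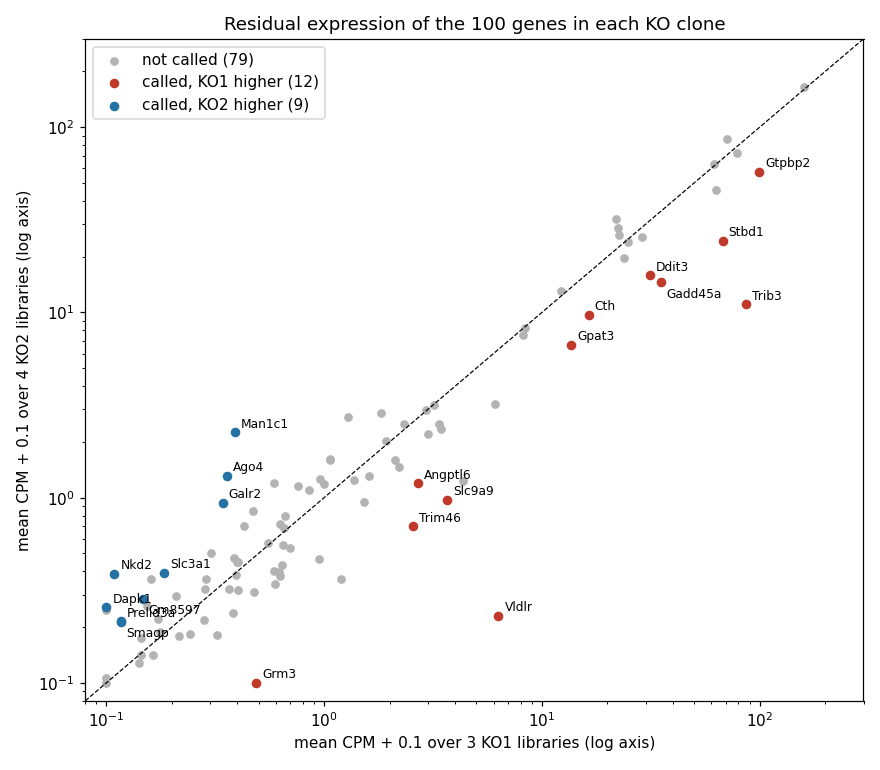
Mean CPM + 0.1 of each of the 100 genes in KO1 (horizontal, log axis, 3 libraries) and in KO2 (vertical, log axis, 4 libraries), with the dashed line marking equal means. The 12 genes called higher in KO1 (red) include the abundant Trib3 and Stbd1, and the 9 called higher in KO2 (blue) were all below 2.5 CPM in both clones.

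Trib3 had the smallest p of the members between the clones, with a mean of 86.1 ± 44.2 CPM in KO1 (SD, n = 3) and 11 ± 3.62 CPM in KO2 (SD, n = 4). The log2 difference was 2.96 (SE 0.34, edgeR adjusted p = 0.00261, exact permutation p = 0.0286, two-sided, the smallest that 35 splits allow). Vldlr was 5.66 higher on the log2 scale in KO1 (SE 0.88, edgeR adjusted p = 0.00714). Its KO1 mean was 6.22 ± 4.34 CPM with replicate 3 far under the other KO1 libraries, and its KO2 mean 0.131 ± 0.115. Grm3 kept 0.389 ± 0.258 CPM in KO1 and none in KO2 (edgeR adjusted p = 0.0138), and against 3 counts over the KO2 libraries the controls were at least 166-fold higher. That p-value comes from the fit with the controls. In the fit of only the 7 KO libraries, Grm3 did not pass the filter on low counts and has no value. In that fit 10 members were called. Trim46 (log2 difference 2.02, SE 0.46), Slc9a9 (2.03, SE 0.42), Stbd1 (1.45, SE 0.34), Gpat3 (1.02, SE 0.24) and Gtpbp2 (0.78, SE 0.18) were also higher in KO1.

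In the other direction, Ago4 was lower in KO1 by a log2 difference of -2.20 (SE 0.43, edgeR adjusted p = 0.0156), with 0.442, 0.228 and 0.104 CPM in KO1 and 1.34, 1.02, 1.12 and 1.35 in KO2 of 11.8 and 10.1 in controls. Galr2 was lower in KO1 by -1.77 (SE 0.41, edgeR adjusted p = 0.0271). The remaining 11 called members were Gadd45a, Ddit3, Cth and Angptl6 on the KO1 side, and Dapk1, Nkd2, Man1c1, Gm8597, Prelid3a, Slc3a1 and Smagp on the KO2 side. The clones overlapped for Dapk1 (exact permutation p = 0.257), Smagp (exact permutation p = 0.0857) and Angptl6 (exact permutation p = 0.0571), although edgeR called them. For Ago4 and Trim46 the exact permutation p was 0.0286, the smallest possible. Of the 10 leading differences, those of Trim46, Gtpbp2, Stbd1, Galr2 and Gpat3 did not pass when KO1 replicate 2 was left out, and that of Gtpbp2 did not pass with the replicate number as a block. The number of members called was 5 without KO1 replicate 2 and 18 with DESeq2. Over all genes 874 and 3458 were called in these settings, against 2944 in the main fit. Without either control replicate 13 members were called, where 2007 (without replicate 1) and 2005 (without replicate 2) of all genes were. Without KO1 replicate 1 it was 12 members and 1424 of all genes. The member counts thus moved along with those over all genes, except with DESeq2.

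**Figure D4:**
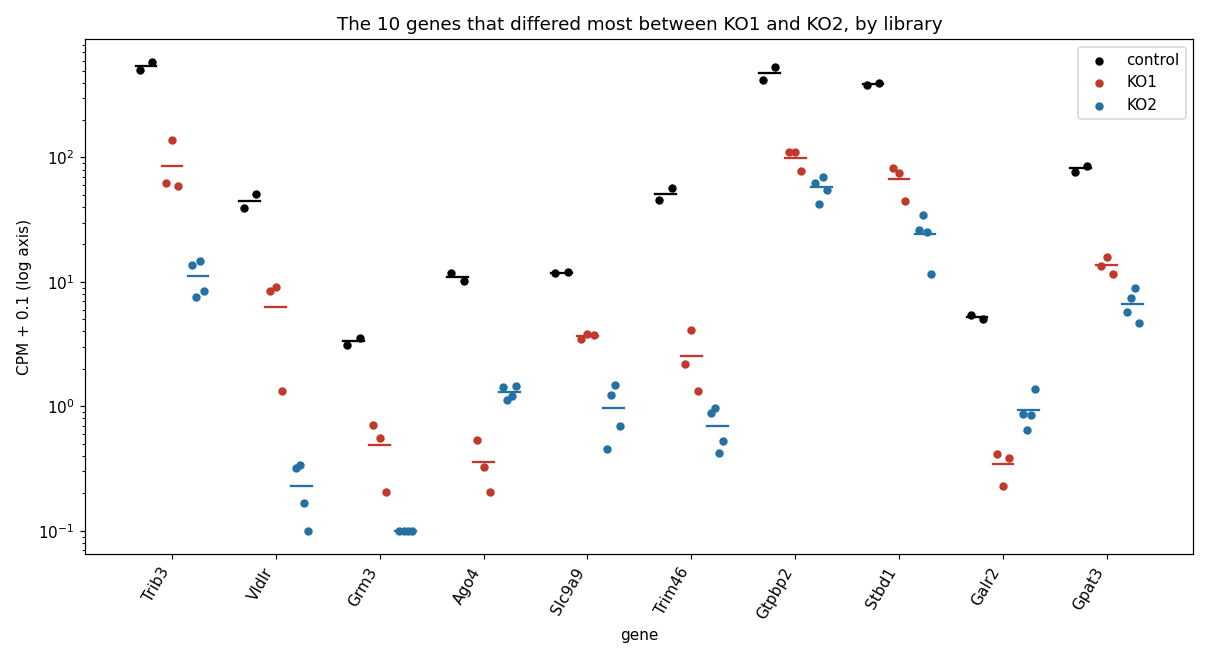
CPM + 0.1 (log axis) of the 10 genes with the smallest p between KO1 (red) and KO2 (blue), with controls in black, points for libraries and bars for group means. Ago4 and Galr2 lie higher in KO2 and the other 8 higher in KO1, with all libraries of a clone on the same side.

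Of the 19 tested genes of the stress and growth arrest list, 11 were called between the clones, where 19.6% of all genes were, and 10 of the 11 were higher in KO1. The members Trib3, Gadd45a and Ddit3 were among these, while Atf3 did not differ beyond its spread (log2 difference -0.55, edgeR adjusted p = 0.495). Outside the members, Chac1 (2.75), Gadd45b (2.52) and Ddit4 (2.42) were higher in KO1 on the log2 scale. The list was written with earlier results of these data known and is no independent evidence of a direction.

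The number of members differed between the chromosomes. Chromosome 4 held 22 of the 100, which is 2.86% of its 769 genes at 1 CPM or more in controls, against 0.847% over all chromosomes, and chromosome 13 held 8 (1.94%). Of the 12 genes with the highest ratios, Dapk1, Gmpr, Cplx2, 2810429I04Rik and Dcdc2a lie on chromosome 13. The other expressed genes of chromosome 4 had a median log2 difference from control of -0.45 in KO1 and -0.17 in KO2, and those of chromosome 13 of -0.20 and 0.11, where all chromosomes together had -0.01 in each. Chromosomes 12 and 14 had medians of -0.49 and -0.48 in KO1 with 5 and 4 members. The part of these chromosome-wide levels in the loss of the members was not tested. Within 500 kb, the other expressed genes had a median below 0 for 61 members, and 17 members had another member that near. Neither count was set beside the same count for genes outside the members, or adjusted for the differences between chromosomes. Whether genes near the members were lower than genes elsewhere was therefore not tested.

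**Figure D5:**
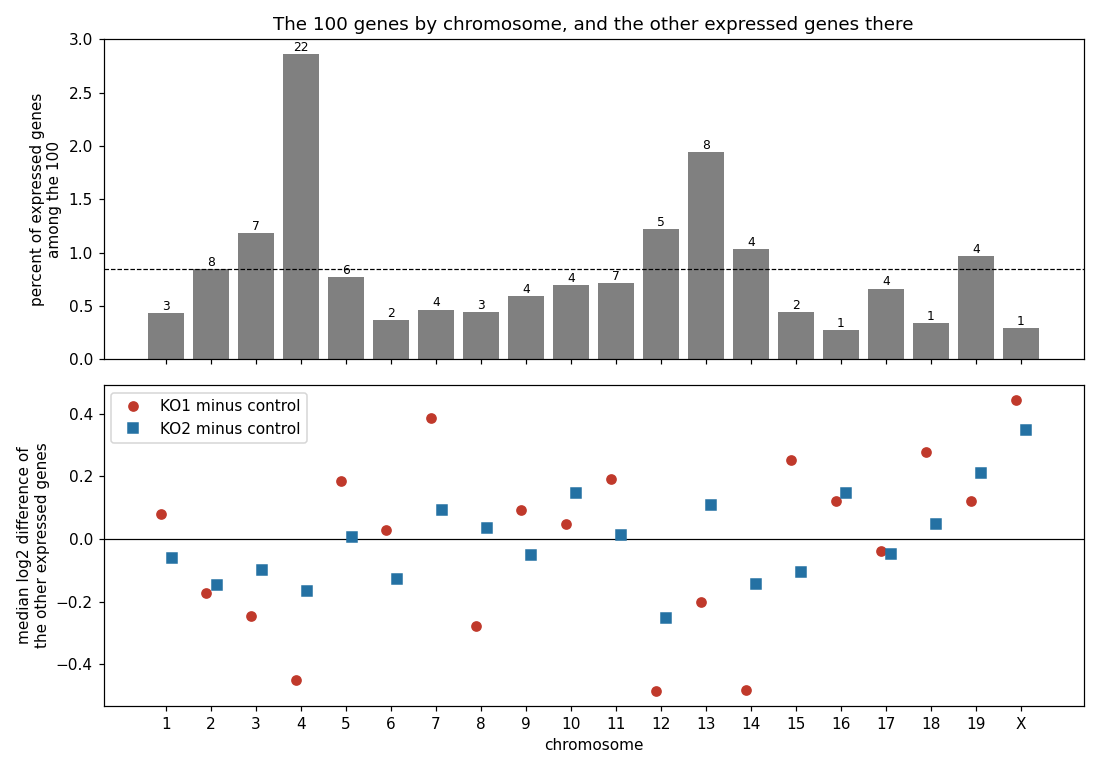
Share of the genes at 1 CPM or more in controls that were among the 100, by chromosome (upper bars, with the number of members above each and the share over all chromosomes as a dashed line), and median log2 difference from control of the other expressed genes (lower points, KO1 in red and KO2 in blue). Chromosome 4 has the highest share (22 members) and the median of its other genes lies below 0 in both clones.

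Peak lists of MaTAR25 ChIRP-seq, in which tiling oligos pull down chromatin bound by the RNA, were set beside the members. In the list of the total oligo pool in 4T1 cells, 73 of the 100 members were the gene with the nearest promoter to at least 1 peak, against 61.6% of the 11800 genes. With peaks of a score of at least 100 it was 35 members against 27.3%. The even pool gave 64 (55.1%), the odd pool 63 (54.2%) and MMTV-Neu-NDL cells 74 (60.1%), and 46 members had a peak in all 4 lists (36.2%). In the even list the peaks of chromosomes 2 and 3 are listed together under chromosome 2. Members on chromosome 3 therefore had 0 peaks in it. Members on chromosome 2 may hold peaks of chromosome 3, such as Abtb2 with 18 even peaks against 6 in the total pool. The even counts and those over all 4 lists, and their background shares, are thus uncertain for these chromosomes. A peak of the 4T1 total pool lay within 1 kb of the start of 17 members, against 14.2%. These shares were not adjusted for gene length and were not tested. The highest-scoring member peaks lay near Mknk1 (chr4:115864464-115865651, score 636.6) and in an intron of Atf3 (chr1:191174833-191175457, score 543.9), which ranked 379 and 701 of the 76806 peaks. Dapk1 had its highest-scoring peak at -20284 bases from the start (score 164.4).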

How the data were processed

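For RNA-seq the deposited values are raw counts, which the authors obtained with STAR alignment of polyA RNA reads (single-end) to the GRCm38 genome and HTSeq on GENCODE vM5. No normalization was applied. In KO2 replicate 2 every gene appears 3 times with equal counts, and 1 copy was used. The ChIRP-seq lists hold HOMER peak scores that the authors computed over pooled replicates, so that no replicate test is possible there.

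CPM was the count over the library's gene total. Differences were tested in R 4.3.3 with edgeR 4.0.16 (TMM library sizes, filterByExpr, quasi-likelihood test, Benjamini-Hochberg adjustment over all 15023 genes tested, threshold 0.1) and, as an alternative, DESeq2 1.42.0. All knockouts against control used 2 groups, and KO1 against KO2 used 3. The fits were tested on simulated counts. For members, the clones were further compared on log2(CPM + 1) by exact permutation over the 35 splits of the KO libraries. Fold bounds against 0 counts use 3 counts over the group and cover counting error only. Gene positions come from GENCODE vM21 and promoter windows from RefSeq, both on GRCm38. Python 3.11.15 was used for tables.

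The members and gene lists were chosen with earlier results of these data known, and role groups were written after the members were seen. Genes were named if among the 12 highest ratios, the 10 smallest p between clones, the 3 most abundant members of a list or of all, or ranks 98 to 103, of which 1 gene outside the 100 is not reported here. Others were named after their values were seen.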

Additional observations from a re-analysis of the deposited data

Results flagged for a closer look

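Among 51 members that the naming rule gives or the report describes and that had counts in KO2, 9 had 1 KO2 library far from the other 3 by Dixon's criterion. For normally distributed values, chance alone meets it in about 1 of 20 groups. Some of the 51, Mt2 and Mrgprb2 among them, were named after their values had been seen, and many values were near 0. The count of 9 can therefore not be judged against that rate. Camk2n1 (1.83 CPM), Cdh3 (0.733 CPM), Cacng4 (0.275 CPM), 2810429I04Rik (0.0229 CPM), Mrgprb9-ps (2.06 CPM) and Mrgprb2 (7.05 CPM) were highest in KO2 replicate 3. 4930455G09Rik was highest in KO2 replicate 1 (0.164 CPM), and Chka (234 CPM) and Mt2 (49.7 CPM) in KO2 replicate 2. Where the other 3 libraries were at 0, a few counts decide this.

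The difference between KO1 and KO2 passed the edgeR test for 21 members. As log2 differences of KO1 minus KO2, the 12 higher in KO1 were Trib3 (2.96), Vldlr (5.66), Grm3 (6.99), Slc9a9 (2.03), Trim46 (2.02), Stbd1 (1.45), Gadd45a (1.26), Angptl6 (1.22), Gpat3 (1.02), Ddit3 (0.97), Gtpbp2 (0.78) and Cth (0.75). The 9 higher in KO2 were Dapk1 (-5.77), Nkd2 (-4.71), Man1c1 (-2.93), Prelid3a (-2.75), Smagp (-2.66), Ago4 (-2.20), Gm8597 (-1.95), Galr2 (-1.77) and Slc3a1 (-1.72). For Grm3 and Dapk1 the value depends on the prior count, since 1 clone had no counts.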

How the results depend on the processing

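Of the 100 members, 48 were also chosen when the median of the KO libraries replaced the highest, 68 with a constant of 1, and 73 to 98 when 1 library was left out. The 21 members called between KO1 and KO2 became 12 at a threshold of 0.05, 10 with only the 7 KO libraries, 18 with the replicate block and 5 to 24 when 1 library was left out. For all genes, the 2944 called between the clones became 1643, 1932 and 1736 under the same settings, and 874 to 4077 without 1 library. The 1603 genes called lower in KO became 1067 at a threshold of 0.05, 925 with the replicate block, 2470 in the 3-group fit, and 265 to 1899 without 1 library, the lowest without control replicate 1. The members called lower in KO were 66 to 98 without 1 library. The main fits did not pair libraries by replicate number. After group means were removed, same-numbered libraries correlated by -0.149 to 0.0429, and differently numbered ones by -0.120 to 0.150. With 2 controls, the deviations of 1 are the exact opposite of the other. This check therefore cannot decide whether the numbers pair the samples. Members near a 4T1 total-pool peak fell from 73 to 35 with a score of at least 100, by construction. The causes of the other shifts were not tested. With 2 controls and many members under 10 CPM, depth limits what a low value in a knockout shows.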
